A study of Mus musculus with 16 samples.

Results

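Kupffer cells are the macrophages that reside in the liver, and 10 genes used to mark them (*Adgre1*, *Clec4f*, *Vsig4*, *Timd4*, *Marco*, *Cd5l*, *C1qa*, *C1qb*, *C1qc* and *Cd68*) are described here in whole liver RNA. They were chosen by symbol, and all 10 were found among the 17003 genes of the deposited table. Liver RNA was sequenced from 16 male mice, 1 library per mouse, to ask what loss of *Fgl1* from hepatocytes does to liver transcripts. All mice were 8 weeks old, ate normal chow and were labelled as fed. The 8 *Fgl1* WT mice carried floxed *Fgl1* alleles without CRE. The 8 *Fgl1* LKO littermates also carried a CRE recombinase under the albumin promoter, which is active in hepatocytes. The mice are named here by the replicate number in their labels, and their mouse numbers were divided here into 4 runs. The run 36 to 38 held 3 *Fgl1* WT mice only, 48 to 55 held 1 *Fgl1* WT and 3 *Fgl1* LKO mice, 60 to 64 held 2 and 3, and 69 to 72 held 2 and 2. The labels do not say what a run of numbers stands for, and mouse 55, *Fgl1* LKO replicate 3, is as far from 50 as from 60, so that its place in the second run is a choice.

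Kupffer cells line the sinusoids of the liver and clear particles, microbes and dying cells from portal blood. They are seeded before birth, renew themselves under the growth factor receptor Csf1r, and are told from recruited monocytes by proteins such as Clec4f, Vsig4 and Timd4. They also secrete proteins, among them the C1q chains that start the classical complement pathway and Cd5l.

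Values are FPKM, fragments scaled by the authors to transcript length and library size, so that levels can be compared between genes. The targeted gene was checked first. *Fgl1* had 504.5 ± 440.2 FPKM (SD, n = 8) in *Fgl1* WT and 52.0 ± 30.0 FPKM (SD, n = 8) in *Fgl1* LKO livers, with no overlap between the genotypes (two-sided p = 0.000155 by exact permutation, which is the lowest value possible for 8 against 8 mice). Groups did not overlap for 2 of 12770 genes tested (0.0157%), *Fgl1* and *Fitm2*, the second named after its values were seen. The groups overlapped for each of the 10 markers.

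All 10 markers were above 0 in every mouse and passed the filter on low values, a mean of at least 0.1 FPKM. In order of mean level over the 16 mice they were *C1qc* (45.6 FPKM), *Cd5l* (39.0 FPKM), *C1qb* (38.3 FPKM), *C1qa* (36.8 FPKM), *Clec4f* (29.8 FPKM), *Vsig4* (13.9 FPKM), *Cd68* (8.38 FPKM), *Adgre1* (4.41 FPKM), *Marco* (2.32 FPKM) and *Timd4* (2.04 FPKM). Neighbours in this order were not all separated. *Cd5l* was above *C1qb* in 8 of 16 mice, *C1qb* above *C1qa* in 12, and *Marco* above *Timd4* in 11, while *C1qa* was above *Clec4f*, and *Clec4f* above *Vsig4*, in all 16. The markers had a wide spread between mice. Their median coefficient of variation was 28.4%, against 15.2% over the 10038 genes whose mean reached 1 FPKM.

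**Figure D1:**
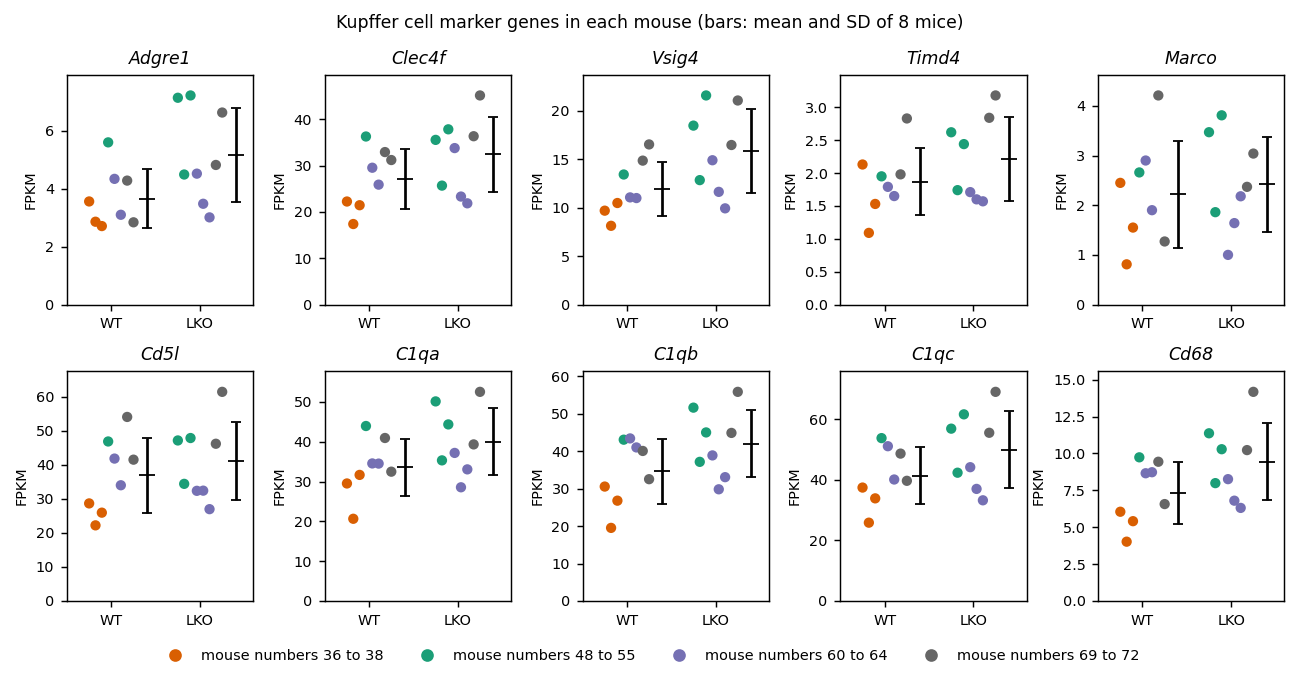
FPKM of each marker gene (vertical axis, from 0) in each of 8 *Fgl1* WT and 8 *Fgl1* LKO mice, coloured by run of mouse numbers, with the mean and SD of each genotype as a bar at the right. The genotypes overlap in every panel, and the 3 mice of the run 36 to 38 lie in the lower part of the *Fgl1* WT group for most genes.

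*Clec4f* encodes a C-type lectin receptor that in mice is made by Kupffer cells. In *Fgl1* WT livers it ranged from 17.4 to 36.3 FPKM (median 27.7), and in *Fgl1* LKO livers from 21.9 to 45.1 FPKM (median 34.7). Its lowest value was in *Fgl1* WT replicate 2 and its highest in *Fgl1* LKO replicate 8. The same mouse, *Fgl1* WT replicate 2, was lowest for 9 of the 10 markers, and *Fgl1* LKO replicate 8 was highest for 7. The difference between genotypes in log2(FPKM + 1) was 0.25 ± 0.16 (SE; limma, adjusted p = 0.732), with 5 of 8 *Fgl1* LKO mice above the *Fgl1* WT median.

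*Vsig4*, a complement receptor of the immunoglobulin superfamily that captures opsonised particles, ranged from 8.12 to 16.5 FPKM (median 11.0) in *Fgl1* WT and from 9.92 to 21.6 FPKM (median 15.7) in *Fgl1* LKO livers. The ranges overlapped, and 7 of 8 *Fgl1* LKO mice lay above the *Fgl1* WT median. The log2 difference was 0.37 ± 0.16 (SE), with an unadjusted p of 0.0309 and an adjusted p of 0.696 in limma. The exact permutation test on FPKM gave an unadjusted p of 0.0475.

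*Timd4*, a phosphatidylserine receptor for apoptotic cells, was the lowest of the markers. It ranged from 1.09 to 2.83 FPKM (median 1.87) in *Fgl1* WT and from 1.57 to 3.18 FPKM (median 2.09) in *Fgl1* LKO livers. The genotypes lay over each other for much of their range, and 4 of 8 *Fgl1* LKO mice were above the *Fgl1* WT median. The log2 difference was 0.16 ± 0.13 (SE; limma, adjusted p = 0.783).

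Among the scavenger receptors of the set, *Marco* recognises bacteria and particles. It ranged from 0.81 to 4.21 FPKM (median 2.17) in *Fgl1* WT and from 1.00 to 3.81 FPKM (median 2.27) in *Fgl1* LKO livers, and it had the highest coefficient of variation of the 10 markers (42.7%). Its highest value was in an *Fgl1* WT mouse, replicate 7. *Cd68*, a scavenger receptor of late endosomes found in macrophages in general, ranged from 4.02 to 9.74 FPKM (median 7.62) in *Fgl1* WT and from 6.31 to 14.2 FPKM (median 9.24) in *Fgl1* LKO livers. The log2 differences were 0.11 ± 0.21 (SE) for *Marco* and 0.33 ± 0.17 (SE) for *Cd68* (limma, adjusted p = 0.918 and 0.700).

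*Adgre1* encodes F4/80, the adhesion G protein-coupled receptor most used to stain mouse macrophages. It ranged from 2.71 to 5.60 FPKM (median 3.33) in *Fgl1* WT and from 3.01 to 7.22 FPKM (median 4.67) in *Fgl1* LKO livers. Unlike the other 9 markers, it was lowest in *Fgl1* WT replicate 3. Its log2 difference of 0.39 ± 0.16 (SE) was the largest of the 10, with 7 of 8 *Fgl1* LKO mice above the *Fgl1* WT median, an unadjusted p of 0.0272 and an adjusted p of 0.696 in limma. The exact permutation test on FPKM gave an unadjusted p of 0.0474. For the markers other than *Adgre1* and *Vsig4*, the same test gave unadjusted p-values from 0.0971 (*Cd68*) to 0.69 (*Marco*). It was run on named genes only, so no share over all genes can be set beside it.

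Of the secreted products, *Cd5l*, a scavenger protein that binds IgM and is induced through liver X receptors, ranged from 22.2 to 54.1 FPKM (median 37.8) in *Fgl1* WT and from 27.0 to 61.5 FPKM (median 40.3) in *Fgl1* LKO livers. The log2 difference was 0.16 ± 0.19 (SE; limma, adjusted p = 0.839). The 3 chains of C1q, which assemble into 1 recognition molecule, had similar levels. *C1qa* ranged from 20.6 to 43.9 FPKM (median 33.5) in *Fgl1* WT and from 28.6 to 52.5 FPKM (median 38.2) in *Fgl1* LKO livers. *C1qb* ranged from 19.5 to 43.4 FPKM (median 36.3) and from 29.8 to 55.9 FPKM (median 41.9), and *C1qc* from 25.8 to 53.7 FPKM (median 39.8) and from 33.2 to 69.0 FPKM (median 49.8). For each chain the lowest mouse was *Fgl1* WT replicate 2, and 6 of 8 *Fgl1* LKO mice were above the *Fgl1* WT median. The log2 differences were 0.25 ± 0.14, 0.29 ± 0.16 and 0.26 ± 0.16 (SE; limma, adjusted p = 0.708, 0.707 and 0.722).

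The ratio between the chains varied less than their levels. *C1qa* over *C1qb* ranged from 0.795 to 1.18 in the 16 mice, a coefficient of variation of 9.11%, while the summed FPKM of the chains ranged from 66.0 to 177.3, a coefficient of variation of 23.6%. The ratio was 0.985 ± 0.122 (SD, n = 8) in *Fgl1* WT and 0.954 ± 0.037 (SD, n = 8) in *Fgl1* LKO livers (exact permutation test, two-sided, p = 0.52). The chains are neighbours in the genome. On GRCm39 with the GENCODE annotation, *C1qb* (136606009 to 136613511), *C1qc* (136616466 to 136620376) and *C1qa* (136623223 to 136626161) lie in this order on the minus strand of chromosome 4, with 3 exons each. They span 20153 bases, and the gaps between them are 2954 and 2846 bases. The other 7 markers lie on chromosomes 1, 3, 6, 11, 17 and X, with *Timd4* and *Cd68* both on chromosome 11.

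The bases before the gene start were examined as a description. Whether they bear on the levels of the markers across mice was not tested. The RefSeq promoter table (GRCm38.p6) held 8 of the 10 markers, all but *Adgre1* and *C1qa*, and the 250 bases before the start were searched on both strands. The core of the site for PU.1, a factor of macrophage development, was taken as GAGGAA. It was found for 6 of the 8 markers (*Vsig4*, *Marco*, *Cd5l*, *C1qb*, *C1qc* and *Cd68*), and in 23.4% of all 32536 windows in the table. The longer GAGGAAGT, which contains it, was found for *C1qc* and in 2.5% of all windows. The MAF core TGCTGA was found for 4 markers (*Clec4f*, *Timd4*, *Cd5l* and *C1qb*) and in 16.1% of windows, and the nuclear receptor core AGGTCA for 3 (*Clec4f*, *Timd4* and *C1qc*) and in 14.0%. The *Clec4f* match to the last of these, from -22 to -17, lies inside the gene by the GENCODE start. The E-box CACGTG was found for 0 of the 8 markers and in 6.0% of windows. These are matches of letters, and binding was not measured.

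The 120 bases before the start are shown for the 3 markers with GAGGAA in that stretch, which encode a receptor and 2 secreted products, in the direction of transcription with the PU.1 core or its reverse complement in capitals. Each was placed by its exact match on GRCm39, at chrX:95337045-95337164 (minus strand) for *Vsig4*, chr3:87265068-87265187 (plus strand) for *Cd5l* and chr4:136613512-136613631 (minus strand) for *C1qb*.
Vsig4: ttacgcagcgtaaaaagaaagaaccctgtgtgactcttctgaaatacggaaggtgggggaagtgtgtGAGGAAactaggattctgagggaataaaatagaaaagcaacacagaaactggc
Cd5l: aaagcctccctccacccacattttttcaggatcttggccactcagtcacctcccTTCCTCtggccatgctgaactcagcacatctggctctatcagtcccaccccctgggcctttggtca
C1qb: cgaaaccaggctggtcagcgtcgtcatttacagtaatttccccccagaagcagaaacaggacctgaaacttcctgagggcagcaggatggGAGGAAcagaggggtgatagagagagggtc

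Counted from the RefSeq gene start, the capitals lie from -53 to -48 in *Vsig4*, from -66 to -61 in *Cd5l*, where the match is on the other strand, and from -30 to -25 in *C1qb*. By GENCODE, the last 6 bases of the *Cd5l* stretch already lie inside the gene, as do 6 bases of the searched window of *Timd4*, 71 of *Clec4f*, 71 of *Cd68* and 151 of *C1qc*.

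The question of the comparison was whether the markers differ between genotypes. All 10 were higher on average in *Fgl1* LKO livers, with a median log2 difference of 0.26, against 0.01 over all 12770 genes, of which 7126 were higher. When 1 mouse was left out, the median of the markers ranged from 0.17 (without *Fgl1* WT replicate 2) to 0.33 (without *Fgl1* LKO replicate 6). None of the 10 passed an adjusted p of 0.05 in limma, and nor did any of the 12770 genes (0%). The targeted gene *Fgl1* also missed it, with a log2 difference of -3.105 and an adjusted p of 0.0725 in limma. A marker that misses this threshold is therefore not shown to be unchanged. At an unadjusted p under 0.05, 2 of the 10 (*Adgre1* and *Vsig4*) were higher, against 593 of 12770 genes (4.64%) higher and 895 (7.01%) in either direction. By the exact rank-sum test, 0 of the 10 passed after adjustment and 1 had an unadjusted p under 0.05, against 840 of 12770 genes (6.58%). The markers vary together, so that 10 differences of the same sign are not 10 separate observations. In whole liver, fewer cells of a type and less RNA per cell cannot be told apart.

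The runs of mouse numbers moved with these differences. In *Fgl1* WT mice, the mean of each marker was lower in the 3 mice of the run 36 to 38 than in the other 5, by a factor of 1.29 for *Timd4* to 1.71 for *Cd5l*. For 7 of the 10 markers the highest of the 3 mice was below the lowest of the other 5, the exceptions being *Adgre1*, *Timd4* and *Marco*. No *Fgl1* LKO mouse belongs to that run, so that run and genotype cannot be told apart there. In the other runs, the difference between genotypes in mean log2(FPKM + 1) varied in sign. In the run 48 to 55, 6 markers were higher and 4 lower in *Fgl1* LKO mice (median 0.02). In the run 60 to 64, 1 was higher and 9 lower (median -0.17), and in the run 69 to 72, 10 were higher (median 0.32). On the FPKM scale *Marco* was not higher in that last run, with means of 2.74 in *Fgl1* WT and 2.705 in *Fgl1* LKO mice. These counts rest in part on mouse 55. In alternatives chosen after seeing the data, the run 48 to 55 had 4 higher and 6 lower without it (median -0.03), and the run 60 to 64 had 5 higher and 5 lower with it (median -0.02).

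With the run as a term in the fit, the median log2 difference of the markers was 0.06, and without the 3 mice 0.07. In both, *Marco* (-0.10 and -0.06) and *Cd5l* (-0.10 and -0.11) were lower in *Fgl1* LKO mice and the other 8 higher. The same 2 were lower when mouse 55 was counted with the run 60 to 64 or as a run of its own, where the medians were 0.10 and 0.05 and 0 markers had an unadjusted p under 0.05, against 1016 (7.96%) and 1043 (8.17%) of 12770 genes. *Marco* was also at -0.0023 without *Fgl1* WT replicate 2. When 1 mouse was left out, *Cd5l* ranged from 0.07 to 0.25 and *Timd4* from 0.10 to 0.22. In those fits *Clec4f* ranged from 0.16 to 0.32, *C1qa* from 0.16 to 0.32, *C1qb* from 0.18 to 0.35 and *C1qc* from 0.17 to 0.34. With the run as a term, *Adgre1* had 0.22 ± 0.15 (SE) and *Vsig4* 0.21 ± 0.12 (SE), and 0 of the 10 markers had an unadjusted p under 0.05, against 1032 of 12770 genes (8.08%). With genotype alone, the count of 2 at that threshold also changed when single mice were left out. It was 0 without *Fgl1* WT replicate 2, *Fgl1* WT replicate 3, *Fgl1* LKO replicate 1, *Fgl1* LKO replicate 3 or *Fgl1* LKO replicate 8, 1 without *Fgl1* WT replicate 1 or *Fgl1* WT replicate 8, 3 without *Fgl1* WT replicate 7, 4 without *Fgl1* WT replicate 4 or *Fgl1* LKO replicate 6, and 5 without *Fgl1* LKO replicate 5. Over the 16 fits that leave out 1 mouse, 624 to 1233 of the 12770 genes (4.89% to 9.66%) had an unadjusted p under 0.05, 974 without *Fgl1* WT replicate 7, 930 and 1233 in the 2 fits with 4 markers and 907 in the fit with 5.

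**Figure D2:**
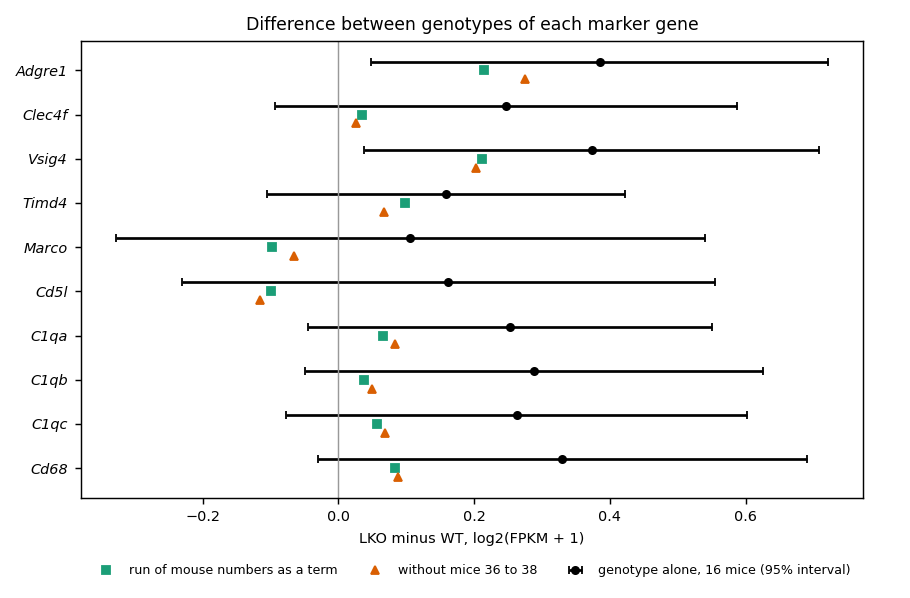
Difference between *Fgl1* LKO and *Fgl1* WT mice in log2(FPKM + 1) (horizontal axis) for each marker, with genotype alone and its 95% interval (black), with a term for the run (green squares) and without the mice 36 to 38 (orange triangles). With genotype alone all 10 lie above 0, from 0.11 for *Marco* to 0.39 for *Adgre1*, and with the run as a term *Marco* and *Cd5l* lie below 0.

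Livers high for one marker tended to be high for the others. Over the 45 pairs of markers and 16 mice, Pearson's r of log2(FPKM + 1) ranged from 0.51 to 0.98 (median 0.84) and Spearman's rho from 0.45 to 0.96 (median 0.82). After Benjamini-Hochberg adjustment over the 45 pairs, all 45 passed 0.05 by r and 44 by rho in permutation tests. The pair that did not was *Vsig4* and *Marco* (r = 0.51, p = 0.0431, adjusted 0.0431; rho = 0.45, p = 0.0805, adjusted 0.0805). Without the 2 mice farthest from the median of the first gene, r ranged from 0.31 to 0.97 (median 0.78).

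The highest r was between *C1qb* and *Cd68*, a secreted and an endosomal protein. It was 0.98 with rho 0.96, and the permutation p was 1e-05 for both, the smallest that the resampling can give (adjusted 2.81e-05 and 3.46e-05). It was 0.97 without the 2 farthest mice. *Clec4f* and *C1qc* had r = 0.95 and rho = 0.95 with the same p-values, and r = 0.91 without the 2 farthest mice. *Marco* stood lowest, with a median r of 0.71 to the other 9 markers, followed by *Timd4* with 0.73, while *C1qc* had 0.92.

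The pairs were also read within genotype and within run. On deviations from the genotype means the median r of the 45 pairs was 0.80 (0.51 to 0.97), and on deviations from the mean of each run it was 0.71 (0.15 to 0.95). In that last form the lowest pair was again *Vsig4* and *Marco* (0.15), while *C1qb* and *Cd68* kept 0.95. With mouse 55 counted with the run 60 to 64 that median was 0.77 (0.34 to 0.96), and with it as a run of its own 0.70 (0.012 to 0.96). As a description, the median r over all pairs of the 10038 genes whose mean reached 1 FPKM was 0.07, and 0.362% of those pairs had an r over 0.8, against 60% of the marker pairs, 100% of the pairs of sinusoidal endothelial genes and 66.67% of those of acute-phase genes. Among themselves, the 9 sinusoidal endothelial genes had a median r of 0.92, and 13 other Kupffer cell genes had one of 0.06, with 5.13% of their pairs over 0.8. That last list includes genes that hepatocytes or endothelial cells also make, so its median does not describe Kupffer cells alone.

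**Figure D3:**
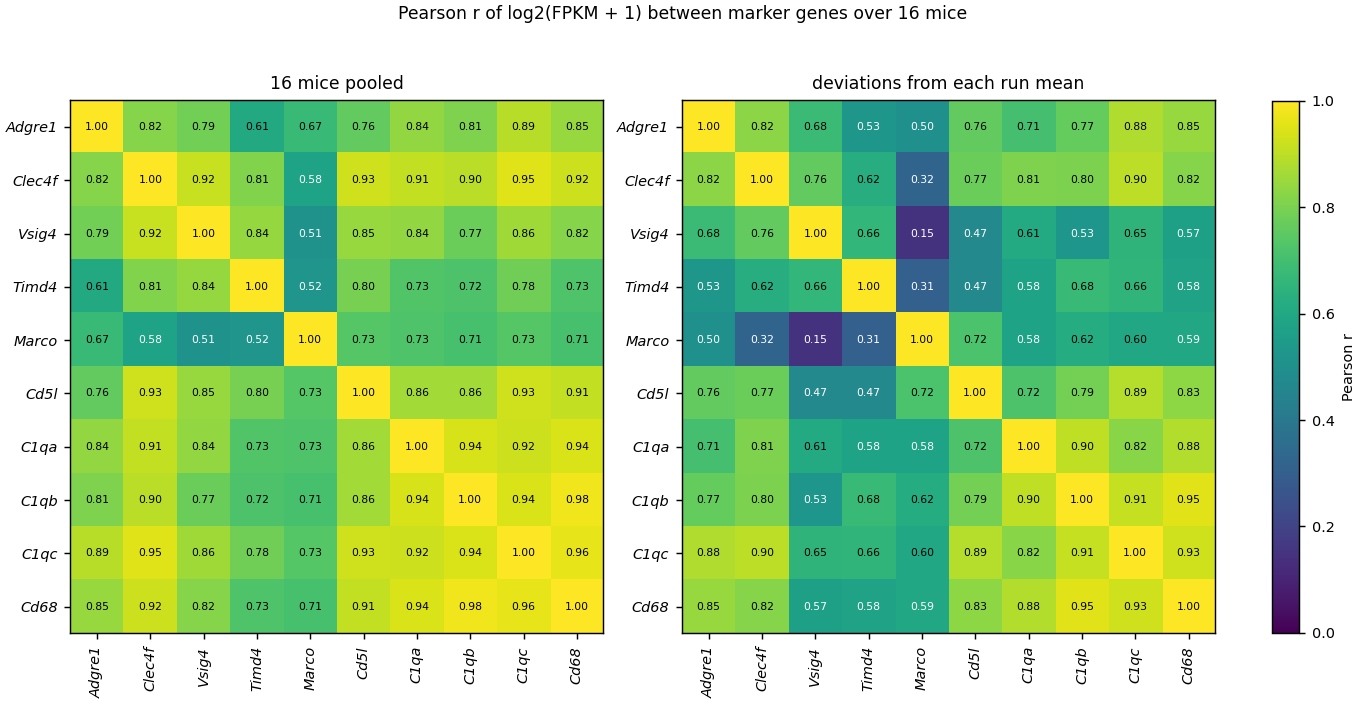
Pearson's r between each 2 markers over 16 mice (colour, from 0 to 1), for log2(FPKM + 1) pooled at the left and as deviations from the mean of each run of mouse numbers at the right. Most squares at the left lie above 0.7, and the lowest square at the right is that of *Marco* and *Vsig4*, at 0.15.

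The genes most like the markers in their pattern over the mice were then named. Of the 10038 genes whose mean reached 1 FPKM, 10028 lie outside the set, and the 5 of them with the highest r over 16 mice to the mean standardized level of the markers were *Csf1r* (0.97), the growth factor receptor of macrophages, *Axl* (0.96), a receptor for apoptotic cells, *Sdc3* (0.95), a syndecan, *Cfp* (0.95), properdin of the alternative complement pathway, and *Nckap1l* (0.95), an actin regulator of blood cells. This is a measure of likeness with no test, and 60 genes (0.598%) had an r over 0.8. *Csf1r* had 10.6 ± 2.13 FPKM (SD, n = 8) in *Fgl1* WT and 13.1 ± 3.15 FPKM (SD, n = 8) in *Fgl1* LKO livers.

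Other gene lists were set beside each marker, in 60 relations of 10 markers with 6 summed lists that were chosen after the data were seen. The summed leukocyte and myeloid genes are no list of another cell type, since Kupffer cells express such genes as well. For these, which span 62.1 to 123.2 FPKM and of which *Lyz2* is the most abundant, r ranged from 0.76 to 0.93 and rho from 0.75 to 0.92. All 10 markers passed 0.05 after adjustment over the 60 relations (adjusted permutation p of r at most 0.00356), and r was 0.53 to 0.86 on deviations from run means and 0.58 to 0.89 without the 2 farthest mice. For recruited monocyte genes, whose sum is mostly *Plac8* (mean 11.38 FPKM, of sums from 8.67 to 19.93 FPKM), r ranged from 0.54 to 0.83 and rho from 0.53 to 0.84, and 7 markers passed by r and 9 by rho. Within runs the values were 0.16 to 0.82.

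Other liver cells gave other values. For sinusoidal endothelial genes, which span 40.0 to 157.9 FPKM and are led by *Clec4g*, r to the markers ranged from -0.12 to 0.33 and rho from -0.15 to 0.22, and 0 of 10 passed (adjusted permutation p of r at least 0.348). For stellate cell genes, led by *Dcn*, r ranged from 0.12 to 0.44 and rho from 0.076 to 0.37. For hepatocyte genes, led by *Alb*, r ranged from -0.47 to -0.12 and rho from -0.38 to -0.082, with 0 of 10 passing for either list by r or rho. For lymphocyte genes, r ranged from 0.33 to 0.53 and rho from 0.36 to 0.76, with 0 passing by r and 6 by rho. Their sum was low, at 0.59 to 2.92 FPKM, and 5 of the 8 genes in it passed the filter on low values. It was lowest in *Fgl1* LKO replicate 5. In alternatives chosen after seeing the data, the relations were read within runs and without the run 36 to 38. On deviations from run means, the median r moved from 0.04 to 0.27 for the endothelial list (-0.11 to 0.49), from 0.28 to 0.44 for the stellate list (0.11 to 0.58), from -0.32 to -0.028 for the hepatocyte list (-0.22 to 0.37) and from 0.46 to 0.43 for the lymphocyte list (0.078 to 0.61). Without the run 36 to 38 the medians were 0.40, 0.63, 0.16 and 0.56. With mouse 55 counted with the run 60 to 64, the values within runs were 0.45, 0.60, 0.20 and 0.48. The 2 genotypes taken alone, also chosen after seeing the data, differed in sign for 3 lists, with 8 mice each and no test of the difference. For endothelial genes r was negative for 9 of 10 markers in *Fgl1* WT mice (-0.55 to 0.020, median -0.39) and positive for 10 in *Fgl1* LKO mice (0.20 to 0.58, median 0.41). For hepatocyte genes it was -0.70 to -0.095 in *Fgl1* WT mice (median -0.58) and 0.021 to 0.40 in *Fgl1* LKO mice (median 0.24), and for stellate genes -0.75 to 0.17 (median -0.16) and 0.57 to 0.79 (median 0.68). The *Fgl1* WT values include the run 36 to 38. A p that misses the threshold does not show that there is no relation. *Alb* made up 6.97% to 8.88% of the summed FPKM in the run 36 to 38 and 4.25% to 6.87% in the other 13 mice, and its part in the marker values was not tested.

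**Figure D4:**
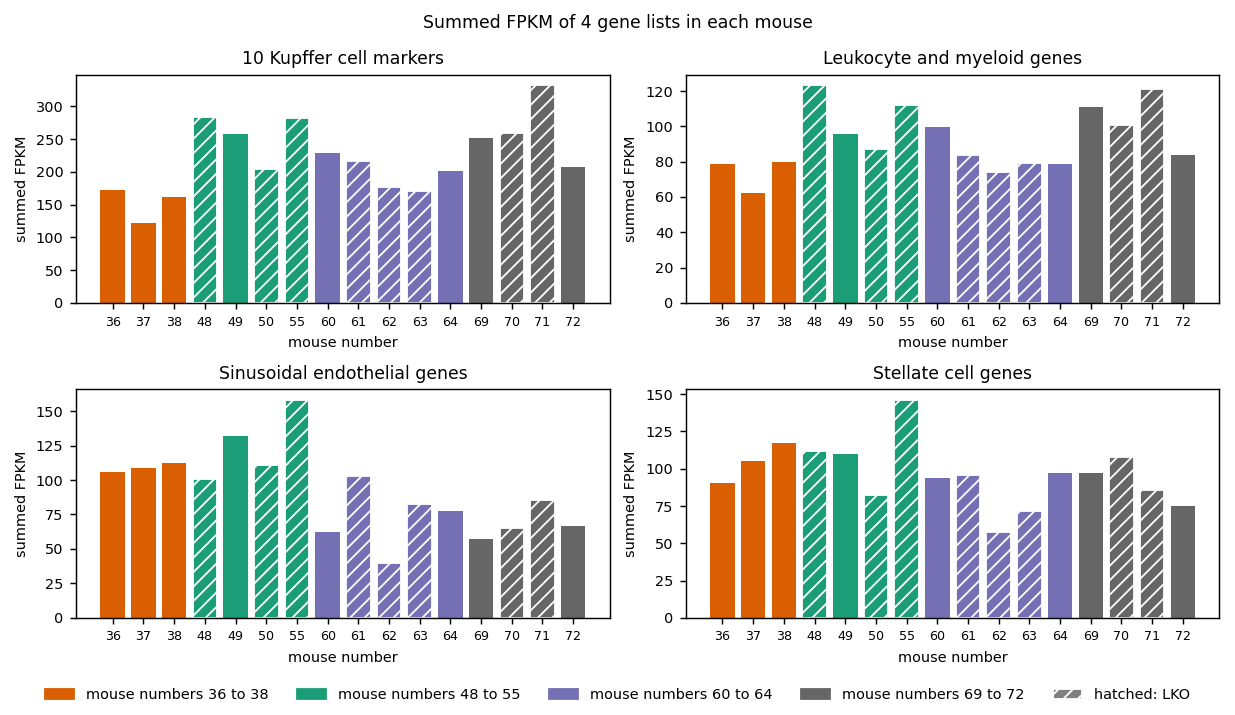
Summed FPKM (vertical axis, from 0) of the 10 Kupffer cell markers and of 3 other gene lists in each mouse, ordered by mouse number (horizontal axis), coloured by run and hatched for *Fgl1* LKO. The sum of the markers runs from 122.5 in mouse 37 to 332 in mouse 71 and its 3 highest mice, 48, 55 and 71, are also the 3 highest for the leukocyte and myeloid genes, while the sinusoidal endothelial sum is highest in mouse 55, at 157.9.

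The pathway around the markers was read from lists of genes. In the growth factor axis that maintains macrophages, 8 of 8 genes were higher in *Fgl1* LKO livers (median log2 difference 0.20, and 0.04 with the run as a term), among them *Tyrobp* (0.28 ± 0.17, SE), *Fcer1g* (0.25 ± 0.15, SE) and *Csf1r* (0.27 ± 0.14, SE). The 8 leukocyte and myeloid genes were higher as well (median 0.17, and 0.05 with the run as a term), among them *Lyz2* (0.14 ± 0.13, SE), *Ctss* and *Laptm5*. Of 14 other Kupffer cell genes, which include genes that hepatocytes or endothelial cells also make, 10 were higher and 4 lower (median 0.07). By mean FPKM 11 of the 14 were higher and 3 lower. *Id3*, *Nr1h3* and *Slc40a1*, the most abundant, had log2 differences of 0.0016, 0.0042 and -0.02, each of which changed sign under at least 1 alternative. None of these passed the test.

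Lists of other immune cells were read in the same way. Of 7 recruited monocyte genes tested, 6 were higher (median 0.05). *Plac8*, the most abundant, was the one that was lower, with a log2 difference of -0.02 and means of 11.44 and 11.32 FPKM in *Fgl1* WT and *Fgl1* LKO livers. *Ccr2* had 0.379 ± 0.248 FPKM in *Fgl1* WT and 0.541 ± 0.152 FPKM in *Fgl1* LKO livers (SD, n = 8), a log2 difference of 0.17 with an unadjusted p of 0.0872 in limma. The medians were -0.04 for 5 lymphocyte genes, 0.10 for 4 neutrophil genes, 0.09 for 4 dendritic cell genes and 0.15 for 5 lipid-associated macrophage genes. Of the neutrophil genes 3 of 4 were higher in mean log2(FPKM + 1), but 1 of 4 in mean FPKM. With the run as a term, the medians turned to -0.02 for the monocyte, -0.35 for the neutrophil and -0.08 for the lipid-associated genes. The largest differences among these were those of *Fabp5* (0.89 ± 0.73, SE; adjusted p 0.785; mean 185.5 FPKM) and *Spp1* (0.59 ± 0.35, SE; adjusted p 0.713; mean 58.1 FPKM), of the lipid-associated list, and *Fabp5* turned to -0.41 with the run as a term. *Fabp5* was as low as 14.77 FPKM in *Fgl1* WT replicate 2 and 14.4 FPKM in *Fgl1* LKO replicate 6, so that its difference depends on single mice. *Spp1* was 255.09 FPKM in its highest mouse, *Fgl1* LKO replicate 8, and without that mouse its log2 fold change was 0.29. *Fabp5* and *Spp1* had higher means than any marker, of which *C1qc* was highest at 45.6 FPKM. *Trem2*, of the same list, had a mean of 0.55 FPKM, and *Gpnmb* did not pass the filter on low values. Which liver cells these transcripts came from was not tested. *Itgax*, of the dendritic list, had a log2 difference of 0.11 ± 0.05 (SE) with an unadjusted p of 0.0407 and an adjusted p of 0.696 in limma, at a mean of 0.208 FPKM. Of 5 immune genes from the qPCR of the study, *Adgre1* and *Ptprc* passed the filter on low values, and *Ly6g*, *Cd3e* and *Il6* did not. *Ly6g* was listed at 0 in all but 2 mice. *Ptprc*, which all leukocytes express, had 1.19 ± 0.264 and 1.27 ± 0.369 FPKM (SD, n = 8).

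Partners of C1q in the classical complement pathway come mainly from hepatocytes. Besides such partners, the 7 genes tested include *C1qbp*, which encodes a C1q-binding protein (log2 difference 0.03) and is counted with them here. Of the 7, 4 were higher and 3 lower in *Fgl1* LKO livers in mean log2(FPKM + 1). Their median was 0.00068, which was -0.11 with the run as a term and -0.13 without the run 36 to 38. By mean FPKM, 3 were higher and 4 lower, *Serping1* being the one that differed. *C1s1*, the protease that C1q activates through C1r, had 244.8 ± 16.7 FPKM (SD, n = 8) in *Fgl1* WT and 224.6 ± 13.8 FPKM (SD, n = 8) in *Fgl1* LKO livers, a log2 difference of -0.12 ± 0.06 (SE) with an unadjusted p of 0.0438 and an adjusted p of 0.696 in limma. The C1q chains had the opposite sign, and the difference between the 2 was not tested. *C3*, *Serping1* and *C4b*, the most abundant of the list, had differences of 0.03, 0.00068 and 0.21, and each was lower in *Fgl1* LKO mice without the run 36 to 38.

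Around *Cd5l*, 6 of 6 liver X receptors and targets were higher in mean log2(FPKM + 1), with a median of 0.03, and 5 of 6 in mean FPKM, where *Mylip* was lower. *Nr1h3* and *Lpcat3* changed sign under at least 1 alternative each. There were 51.2 ± 3.97 FPKM of *Nr1h3* in *Fgl1* WT and 51.4 ± 5.04 in *Fgl1* LKO livers (SD, n = 8). Around *Timd4*, 6 of 7 genes of apoptotic cell recognition were higher (median 0.08), and around *Marco* 6 of 8 scavenger receptors (median 0.08). By mean FPKM 7 of the 8 scavenger receptors were higher, *Scarb1* being the one that differed. Other lists had medians that moved with the runs. The median was 0.03 for 9 sinusoidal endothelial genes, and 0.12 with the run as a term and 0.26 without the run 36 to 38. For 8 stellate cell genes it was -0.0089, then 0.02 and 0.05, and for 6 hepatocyte genes -0.0032, then 0.06 and 0.14. For 6 acute-phase genes it was 0.20, then -0.55 and -0.90, and by mean FPKM 5 of the 6 were lower in *Fgl1* LKO livers. None of these genes passed the test over all genes. *Saa1*, an acute-phase gene, ranged from 63.8 to 16268 FPKM in *Fgl1* WT mice and was 63.8, 71.4 and 66.9 FPKM in the 3 mice of the run 36 to 38, and its part in the marker values was not tested.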

How the data were processed

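Total liver RNA of 16 mice was sequenced in paired reads. The submitters' processing notes name HISAT, Bowtie2 and the mm39 build, with no versions. The authors deposited FPKM, fragments scaled to transcript length and library size and rounded to 2 decimals, for 17003 genes. The counting step and the annotation are not given in the sources used here. How many reads each library had is unknown, and counting error is therefore not given. FPKM summed to 673153 to 786188 per mouse.

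Members and gene lists were chosen with earlier results of these data known. Named genes are the 10 markers, *Fgl1*, the 3 most abundant of each other list and those with an unadjusted p under 0.05, the 5 genes most like the markers, and immune genes the study measured by qPCR. *Fitm2*, *Mylip*, *C1qbp*, *Trem2* and *Gpnmb* are named outside this rule. From the deposited values, log2(FPKM + 1) was compared, two-sided, for the 12770 genes whose mean reached 0.1 FPKM. The fit used limma 3.58.1 (lmFit, eBayes with trend) in R 4.3.3 and Benjamini-Hochberg adjustment at 0.05. This procedure was tested on simulated data, with an outcome that is not given here. A fold change in log2(FPKM + 1) understates that of low genes. Single genes were compared by exact permutation over 12870 splits, and correlations with 100000 resamples, in Python (version 3.11.15; scipy 1.17.1, pandas 2.3.3, numpy 2.4.6). Figures used matplotlib 3.10.9. Promoter windows are RefSeq's (GRCm38.p6), and positions are GRCm39 with GENCODE vM39. Alternatives were other pseudocounts, filters and scalings, array weights, robust fitting, a term for the run of mouse numbers, leaving out its first run or single mice, the replicate number as a block, an exact rank-sum test and a threshold of 0.1.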

Additional observations from a re-analysis of the deposited data

Results flagged for a closer look

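In 134 groups of 8 values, 1 sample stood apart from its group by Dixon's criterion in 4, where chance alone gives about 6.7, and none was a Kupffer cell marker. *Fabp5* was 14.4 FPKM in *Fgl1* LKO replicate 6, the lowest of its group, with 145.02 FPKM next. *Spp1* was 255.09 FPKM in *Fgl1* LKO replicate 8, the highest, with 76.31 FPKM next; this mouse also had the highest sum of the markers. *Ly6g* was 0.1 FPKM in *Fgl1* WT replicate 5 and 0.09 FPKM in *Fgl1* LKO replicate 5, and 0 in the other mice.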

How the results depend on the processing

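No Kupffer cell marker passed the adjusted threshold under any alternative, the threshold of 0.1 included, and 8 of the 10 kept their direction in all 28 settings of the fit. Genes past the threshold numbered 0, and 1, *Fgl1*, with an equal sum of FPKM, with the replicate block, with a term for the run, when the run 36 to 38 was left out, or at an adjusted p under 0.1. Markers with an unadjusted p under 0.05 numbered 2, against 895 of 12770 genes (7.01%). They numbered 1 with median-ratio scaling (986 genes, 7.72%), quantile normalization (1005, 7.87%) or the exact rank-sum test (840, 6.58%), 0 with a term for the run (1032, 8.08%) or when the run 36 to 38 was left out (814, 6.37%), and 0 to 5 when each mouse was left out in turn (624 to 1233, 4.89% to 9.66%). Same-numbered mice did not pair (3 of 8 pairs correlated over 0.1), and with the replicate block 2 markers had an unadjusted p under 0.05 (925 genes, 7.24%). The median r of marker pairs was 0.71 on deviations from run means, against 0.84. In alternatives chosen after seeing the data, the median r of the markers with the summed lists was, on deviations from run means and without the run 36 to 38, -0.028 and 0.16 for hepatocyte genes (pooled -0.32), 0.27 and 0.40 for endothelial genes (0.04), 0.44 and 0.63 for stellate genes (0.28), 0.43 and 0.56 for lymphocyte genes (0.46), 0.60 and 0.58 for monocyte genes (0.72) and 0.81 and 0.85 for leukocyte and myeloid genes (0.88). The place of mouse 55 was also changed after seeing the data. Counted with the run 60 to 64 or as a run of its own, with the run as a term, it gave 1 gene past the threshold, 0 markers with an unadjusted p under 0.05 (1016 genes, 7.96%, and 1043, 8.17%), and log2 differences of -0.047 and -0.14 for *Marco* and -0.054 and -0.12 for *Cd5l*. On deviations from run means the median r was then 0.77 and 0.70 for marker pairs, 0.20 and -0.077 with hepatocyte genes, 0.45 and 0.23 with endothelial genes, 0.60 and 0.43 with stellate genes, 0.62 and 0.59 with monocyte genes and 0.84 and 0.80 with leukocyte and myeloid genes. In *Fgl1* WT mice alone and in *Fgl1* LKO mice alone, also chosen after seeing the data, it was -0.58 and 0.24 with hepatocyte genes, -0.39 and 0.41 with endothelial genes, -0.16 and 0.68 with stellate genes and 0.53 and 0.70 with lymphocyte genes. The read number that limits low genes is unknown: genes as long as *Timd4* that are near 0 have a lowest value above 0 of 0.03 FPKM (median), against 1.09 FPKM for the lowest *Timd4*. For *Marco* the 2 values are closer, at 0.04 FPKM and 0.81 FPKM. The cause of the changes was not tested.

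Of 54 other genes named by the rule and tested, 29 changed sign in at least 1 setting, and 1, *Fgl1*, passed the threshold in 4. The lists that follow include the markers *Marco* and *Cd5l*. With a term for the run the log2 difference changed sign for *Marco* (-0.10), *Cd5l* (-0.10), *Slc40a1* (0.17), *Fabp5* (-0.41), *Cd9* (-0.076), *S100a8* (-0.88), *S100a9* (-0.39), *Csf3r* (-0.25), *Cd79a* (-0.063), *Clec4g* (0.014), *Serping1* (-0.11), *C4b* (-0.023), *Scarb1* (0.018), *Hp* (-0.14), *Saa1* (-0.64), *Saa2* (-1.02), *Ptprc* (-0.057). Without the run 36 to 38 the log2 difference changed sign for *Marco* (-0.065), *Cd5l* (-0.11), *Id3* (-0.067), *Slc40a1* (0.23), *Fabp5* (-0.29), *Cd9* (-0.041), *S100a8* (-0.70), *S100a9* (-0.30), *Csf3r* (-0.20), *Cd79a* (-0.052), *Clec4g* (0.12), *Fcgr2b* (0.15), *Alb* (0.040), *Apoa1* (0.0036), *C3* (-0.019), *Serping1* (-0.13), *C4b* (-0.051), *Pros1* (-0.023), *Hp* (-0.25), *Saa1* (-0.96), *Saa2* (-1.36), *Ptprc* (-0.032). With median-ratio scaling the log2 difference changed sign for *Id3* (-0.017), *Nr1h3* (-0.014), *Csf3r* (-0.00036), *Cd79a* (-0.0067), *Serping1* (-0.018). With quantile normalization the log2 difference changed sign for *Id3* (-0.014), *Nr1h3* (-0.012), *Csf3r* (-0.0051), *Cd79a* (-0.020), *Apoa1* (0.012), *C3* (-0.049), *Serping1* (-0.011), *Stab2* (-0.018). With array weights the log2 difference changed sign for *Id3* (-0.18), *Lpcat3* (-0.040), *Stab2* (-0.021). With a pseudocount of 0.1 the log2 difference changed sign for *Cd79a* (-0.12). With a pseudocount of 0.01 the log2 difference changed sign for *Cd79a* (-0.46). Leaving out each mouse in turn changed the sign at least once for *Marco* (-0.0023 to 0.22), *Id3* (-0.086 to 0.12), *Nr1h3* (-0.029 to 0.024), *Slc40a1* (-0.10 to 0.086), *Plac8* (-0.11 to 0.070), *Cd9* (-0.032 to 0.10), *S100a8* (-0.048 to 0.50), *Csf3r* (-0.050 to 0.089), *Cd79a* (-0.054 to 0.093), *Clec4g* (-0.12 to 0.13), *Fcgr2b* (-0.17 to 0.085), *Oit3* (-0.036 to 0.26), *Colec11* (-0.18 to 0.015), *Apoa1* (-0.059 to 0.025), *C3* (-0.047 to 0.14), *Serping1* (-0.040 to 0.061), *Lpcat3* (-0.053 to 0.070), *Pros1* (-0.016 to 0.090), *Gas6* (-0.036 to 0.26), *Stab2* (-0.11 to 0.12), *Scarb1* (-0.090 to 0.051), *Scarb2* (-0.021 to 0.10), *Hp* (-0.022 to 0.33), *Ptprc* (-0.0062 to 0.081).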
